A study of Mus musculus with 22 samples.

Results

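Type I interferon stimulated genes were followed through mouse intestinal tissue as a module of 38 genes, chosen by name from what is known of the antiviral response. Earlier results of these data were known when the members were chosen, so shares of members set against all genes are descriptive. All 38 were found by symbol among the 46603 genes of the deposited table, and all 38 passed the filter on low counts that left 15763 genes for testing. The tissue came from male wild-type C57BL/6 mice, 7 weeks old at the start and kept on one of 3 diets for 7 weeks. Each diet held 8% fibre by weight, and fat gave 35% of its energy, protein 20% and carbohydrate 45%. The groups were Pectin_PFOS (pectin diet with PFOS, n = 4), Pectin (pectin alone, n = 4), Inulin_PFOS (inulin diet with PFOS, n = 3), Inulin (inulin alone, n = 3), PFOS (cellulose diet with PFOS, n = 4) and Control (cellulose alone, n = 4). Pectin and inulin are fibres that gut bacteria ferment, and cellulose is one they ferment poorly. PFOS (perfluorooctanesulfonic acid), a persistent fluorinated surfactant, was drunk with the water, at a daily dose of 3 µg per kg of body weight. Exposure was read from the sample titles, because the labels list PFOS among the treatments of all 22 samples. The gut segment is not given in the sources used here, and the labels call the samples biological replicates without tying each to an animal, so the tests measure variation among libraries.

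Type I interferons act through the receptor IFNAR1/IFNAR2, and the type III interferons of epithelia through IFNLR1/IL10RB. Both receptors lead to ISGF3, a complex that includes STAT2 and IRF9 and binds interferon-stimulated response elements in the promoters of target genes. In the gut these genes are known as a front line against enteric viruses, and they are also kept active at a low level by signals from resident microbes.

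Library totals lay between 17613322 and 20261370 counts. The summed TPM (a level that allows for gene length) of 5 epithelial markers, Epcam, Cdh1, Krt8, Krt20 and Vil1, was 9080 to 10110 in Pectin_PFOS, 5946 to 9497 in Pectin, 7188 to 8015 in Inulin_PFOS, 7626 to 9569 in Inulin, 7509 to 9991 in PFOS and 3881 to 10687 in Control. Pectin_PFOS replicate 1 stood apart, with the smallest TMM scaling factor of all (0.749), the fewest genes at 10 or more counts (12919) and the lowest summed level of 9 myeloid markers (52.0 TPM). The 4 Pectin_PFOS libraries had scaling factors of 0.749 to 1.00, against 1.11 to 1.21 in PFOS. Mitochondrial genes took 2.85% to 3.51% of their counts, against 4.26% to 9.16% in PFOS. In bulk tissue, fewer cells of a type and less RNA per cell cannot be told apart.

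Promoter stretches of 8 members are shown as examples of a short element known to be read by ISGF3. RefSeq promoter windows (GRCm38.p6, 250 bases before to 50 after each start) were matched to 30 of the 38 members by symbol. Dhx58, Zbp1, Oas2, Usp18, Parp9, Parp14, Mx2 and Rtp4 were not matched. The windows were searched on both strands for GAAANNGAAA (TTTCNNTTTC on the other strand), a core of the interferon-stimulated response element. It was present in 14 of these 30 members (46.7%), against 1079 of 27025 genes in the table (3.99%). The 8 were picked by hand, with results known, from these 14, and the other 6 are Ddx58, Eif2ak2, Ifih1, Oas3, Stat2 and Trim30a. Capitals mark the matches, which overlap each other in Isg15, Oas1a, Oas1g and Bst2, and each sequence reads 5′ to 3′ on the gene's own strand.
Ifit1: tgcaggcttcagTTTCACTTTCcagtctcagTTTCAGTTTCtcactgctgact
Ifit3: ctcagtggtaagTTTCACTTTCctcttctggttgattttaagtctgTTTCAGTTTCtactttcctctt
Ifit3b: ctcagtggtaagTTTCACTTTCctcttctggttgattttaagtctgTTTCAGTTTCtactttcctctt
Isg15: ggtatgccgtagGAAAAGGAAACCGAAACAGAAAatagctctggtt
Oas1a: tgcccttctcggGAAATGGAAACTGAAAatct
Oas1g: tgcccttctcggGAAATGGAAACTGAAAat
Bst2: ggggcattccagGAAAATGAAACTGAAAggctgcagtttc
Rsad2: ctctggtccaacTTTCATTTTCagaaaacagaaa
The stretches lie upstream of the annotated starts, at chr19:34640773-34640825, chr19:34583361-34583428 and chr19:34607757-34607824 on the plus strand, and at chr4:156200863-156200908, chr5:120907526-120907557, chr5:120887614-120887643, chr8:71537575-71537614 and chr12:26456551-26456584 on the minus strand. Ifit3 and Ifit3b, neighbouring copies, share all 68 letters shown. Isg15 holds 3 overlapping matches, whose first letters lie between 78 and 66 bases before its start. Of the 30 members with a window, 23 were called changed by edgeR in at least 1 comparison with all libraries and TMM scaling, and 13 of these held the motif (56.5%). The other 7 were not called there, and 1 of them, Ifih1, held it (14.3%). The members without a matched window were all among the 31 called members, so only the called share leaves members out. A match is a description of these letters and not a measured binding site.

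Levels differed widely between members. By mean TPM over the 22 libraries, Irf7, which amplifies interferon production, was highest (199 TPM), followed by Ifi35 (123 TPM), an interferon-induced leucine zipper protein, and Lgals3bp (99.1 TPM), a secreted glycoprotein. Ifi44 was lowest at 0.555 TPM, 8 members averaged under 5 TPM and 8 averaged over 50 TPM. The summed TPM of the 38 members was 1656 ± 186 in Pectin_PFOS (SD, n = 4), 1062 ± 390.2 in Pectin (n = 4), 1193 ± 307 in Inulin_PFOS (n = 3), 1146 ± 116 in Inulin (n = 3), 1094 ± 93.9 in PFOS (n = 4) and 1023 ± 229 in Control (n = 4). Irf7 alone supplied 13.7% of that sum in Pectin_PFOS and 19.1% in PFOS, on average. By CPM (counts relative to the library's TMM-scaled total), 32 of the 38 members had their highest group mean in Pectin_PFOS and 23 had their lowest in PFOS. The lowest group depended on the measure. By mean TPM, which is not TMM-scaled, only Oas1a, Oas1g, Oas2, Isg15 and Rtp4 were lowest in PFOS, and the summed TPM was lowest in Control.

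**Figure D1:**
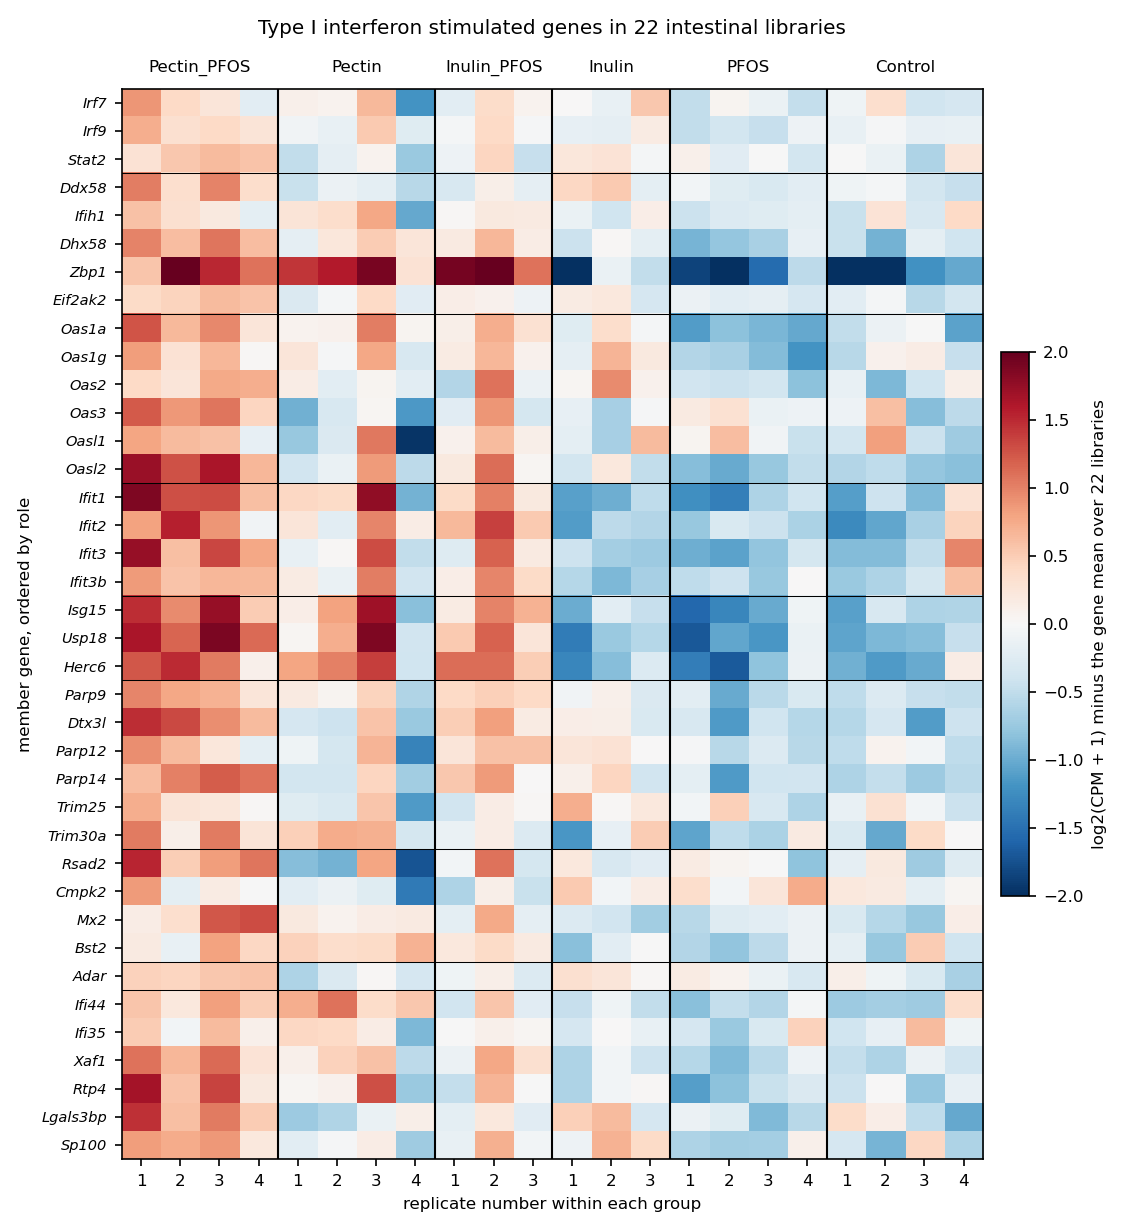
Expression of the 38 members (rows, grouped by role) in the 22 libraries (columns, by group and replicate), as log2(CPM + 1) minus each gene's mean over all libraries; values beyond ±2 share the end colours. The Pectin_PFOS columns are the reddest, Pectin replicate 3 and Inulin_PFOS replicate 2 stand above their own groups, and Zbp1 is high in Pectin_PFOS, Pectin and Inulin_PFOS alike.

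Under PFOS, the module was broadly higher on pectin than on cellulose. In Pectin_PFOS vs PFOS, 29 of 38 members were higher at an adjusted p under 0.05 and 0 were lower, where 7.7% of all genes tested were called higher and 16% were called in either direction (edgeR's quasi-likelihood test, Benjamini-Hochberg over 15763 genes). The members included all 4 IFIT genes, all 3 of the ISG15 pathway, 4 of 5 sensors and 4 of 6 oligoadenylate synthetases. The median log2 fold change of the members was 1.37, against −0.03 over all genes tested, and 37 of 38 were positive, against 48.2% of all genes. Values in parentheses are log2 fold changes ± standard error, each with its adjusted p. In 29 members every Pectin_PFOS library was above every PFOS library, which held for 12% of all genes tested. Scaled by library totals alone the median of all genes was −0.41 and that of the members was 0.95. There 20 members were called, all higher, where 24.3% of all genes were called in either direction. Irf9, Stat2, Ddx58, Eif2ak2, Oas2, Trim30a, Bst2, Adar and Sp100 lost their calls under that scaling. The count was 24 without Pectin_PFOS replicate 1, and 21 members kept their call whichever library was left out. The 8 that lost it in at least 1 omission were Stat2, Oas2, Ifit2, Ifit3b, Trim30a, Bst2, Adar and Ifi44.

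Inulin was set against cellulose under PFOS in the same way. In Inulin_PFOS vs PFOS, 10 of 38 members rose and 0 fell, where 1.84% of all genes tested were called higher and 2.64% were called in either direction. They were Zbp1, Dhx58, Oas1a, Oas1g, Oasl2, Usp18, Herc6, Parp9, Dtx3l and Parp14, with a member median of 0.85. Every Inulin_PFOS library was above every PFOS library in 20 members, against 12.4% of all genes tested. Scaled by library totals alone, the median of all genes was −0.33 and 6.34% of them were called in either direction. Under that scaling 6 of those 10 kept a call and Cmpk2 was called lower (−0.96, adjusted p = 0.0384). This count rested on few libraries. It was 1 without Inulin_PFOS replicate 2 (the highest of its group in 35 of 38 members), 2 without Inulin_PFOS replicate 1 or any of PFOS replicates 1, 2 and 3, and 5 without Inulin_PFOS replicate 3. Only Zbp1 kept its call in every omission. Both comparisons use the same 4 PFOS libraries and so are not independent.

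**Figure D2:**
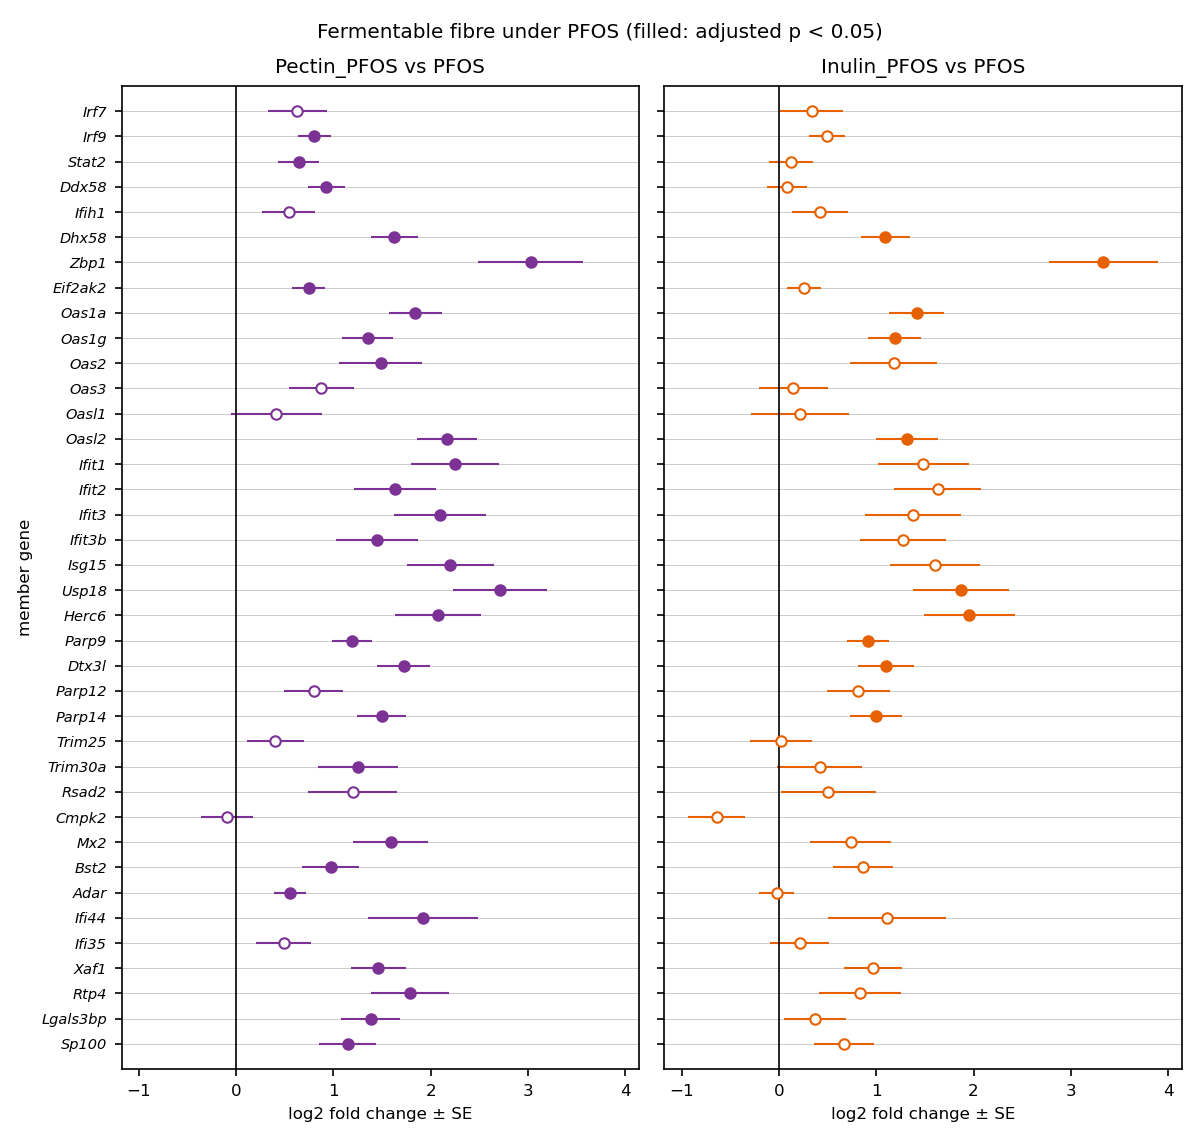
Log2 fold changes (points, horizontal axis) with standard errors (bars) of the 38 members (vertical axis, by role) in Pectin_PFOS vs PFOS (left) and Inulin_PFOS vs PFOS (right); filled points have an adjusted p under 0.05. On the left 29 points are filled and only Cmpk2 lies below 0, and on the right 10 are filled and Zbp1 lies farthest out.

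Among the transcription factors, the ISGF3 parts Irf9 and Stat2 were higher with pectin and PFOS together, while Irf7 was not called. Irf9 stood at 60.6, 45.2, 47.8 and 43.5 CPM in Pectin_PFOS and 35.3, 48.2 and 35.7 CPM in Inulin_PFOS, against 25.5, 27.8, 25.9 and 33.6 CPM in PFOS. In the unexposed groups it was at 34.4, 32.6, 52.2 and 30.5 CPM in Pectin and 32.1, 31.98 and 40.5 CPM in Inulin, against 32.7, 35.5, 32.3 and 32.6 CPM in Control. Every Pectin_PFOS library was above every PFOS library for Irf9 (0.80 ± 0.17, adjusted p = 0.00543), a difference of 0.41 that missed the threshold when scaled by library totals alone (adjusted p = 0.0586), and the groups did not overlap in Inulin_PFOS vs PFOS either (0.49 ± 0.18, adjusted p = 0.131). The Stat2 level was 59.9, 71.6, 76.1 and 72.7 CPM in Pectin_PFOS and 45.4, 65.8 and 35.2 CPM in Inulin_PFOS, against 52.2, 41.3, 48.3 and 37.7 CPM in PFOS. Without PFOS Stat2 had 34.3, 42.95, 51.4 and 28.7 CPM in Pectin and 57.2, 59.4 and 47.4 CPM in Inulin, against 48.5, 44.4, 31.4 and 57.7 CPM in Control. All 4 Pectin_PFOS libraries were above all PFOS and all Pectin libraries for Stat2. It rose in Pectin_PFOS vs PFOS (0.64 ± 0.21, adjusted p = 0.0411), a call lost on omission of any Pectin_PFOS library or of PFOS replicate 2, 3 or 4 (adjusted p up to 0.0969) or when scaled by library totals alone (0.27, adjusted p = 0.38). Irf7 measured 491, 350.3, 315 and 228 CPM in Pectin_PFOS and 228, 342 and 278 CPM in Inulin_PFOS, against 189, 275, 242 and 189 CPM in PFOS. Unexposed, Irf7 stood at 283, 279.5, 415 and 115 CPM in Pectin and 266, 238 and 385 CPM in Inulin, against 249, 336, 199.8 and 209 CPM in Control. The groups overlapped for Irf7, and neither difference under PFOS passed (0.63 ± 0.30, adjusted p = 0.152, in Pectin_PFOS vs PFOS and 0.34 ± 0.32, adjusted p = 0.602, in Inulin_PFOS vs PFOS). Irf9 overlaps its neighbour Rnf31 on the same strand by 123 bases, and how the authors' counting treated such reads is not stated.

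Among the sensors of nucleic acid, Zbp1 had the largest fold changes of the module in both fibre comparisons under PFOS. ZBP1 recognises left-handed nucleic acid and can start necroptosis through RIPK3, and its gene lies at chr2:173206612-173218923 (GRCm38). Zbp1 had 35.3, 113, 69.2 and 51.5 CPM in Pectin_PFOS and 91.7, 107 and 51.4 CPM in Inulin_PFOS, against 5.82, 3.61, 7.44 and 16.1 CPM in PFOS. Its values without PFOS were 65.4, 72.9, 90.7 and 28.98 CPM in Pectin and 4.09, 21.4 and 16.5 CPM in Inulin, against 5.02, 4.36, 9.64 and 11.1 CPM in Control. All Pectin_PFOS, Inulin_PFOS and Pectin libraries were above all PFOS, Inulin and Control libraries. Zbp1 rose in Pectin_PFOS vs PFOS (3.03 ± 0.54, adjusted p = 0.00235) and in Inulin_PFOS vs PFOS (3.34 ± 0.57, adjusted p = 0.0052). Dhx58 encodes LGP2, a regulator of the RNA helicases RIG-I and MDA5. Dhx58 stood at 16.2, 12.2, 17.1 and 12.3 CPM in Pectin_PFOS and 8.78, 12.6 and 8.51 CPM in Inulin_PFOS, against 3.51, 4.05, 4.47 and 6.66 CPM in PFOS. In the unexposed groups it was at 6.60, 9.09, 11.2 and 9.16 CPM in Pectin and 5.42, 7.79 and 6.52 CPM in Inulin, against 5.35, 3.45, 6.49 and 5.54 CPM in Control. Dhx58 rose in both fibre comparisons under PFOS (1.63 ± 0.24, adjusted p = 0.000835 for pectin and 1.09 ± 0.26, adjusted p = 0.0264 for inulin), with no overlap of the groups in either. Ddx58 encodes RIG-I, which detects viral RNA ends. The Ddx58 level was 92.7, 57.1, 90.3 and 57.5 CPM in Pectin_PFOS and 35.9, 48.7 and 39.6 CPM in Inulin_PFOS, against 43.5, 37.9, 36.2 and 38.9 CPM in PFOS. Without PFOS Ddx58 had 32.9, 41.3, 39.00 and 30.5 CPM in Pectin and 60.5, 65.4 and 39.03 CPM in Inulin, against 42.3, 43.8, 34.9 and 32.6 CPM in Control. Ddx58 rose in Pectin_PFOS vs PFOS without overlap (0.93 ± 0.19, adjusted p = 0.00472), and in Inulin_PFOS vs PFOS the groups overlapped (0.08 ± 0.20, adjusted p = 0.862). Eif2ak2, the RNA-dependent kinase PKR, rose in Pectin_PFOS vs PFOS (0.75 ± 0.17, adjusted p = 0.00713), and Ifih1, which encodes MDA5, was not called (0.54 ± 0.27, adjusted p = 0.171). Scaled by library totals alone, Ddx58 (0.52, adjusted p = 0.0578) and Eif2ak2 (0.37, adjusted p = 0.153) were not called either.

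The oligoadenylate synthetases make a messenger that activates RNase L, and 4 of the 6 family members rose in Pectin_PFOS vs PFOS. Oasl2, at chr5:114896936-114912234 (GRCm38) is a synthetase-like member of the family. Oasl2 measured 248, 182, 233 and 119 CPM in Pectin_PFOS and 85.1, 163 and 76.8 CPM in Inulin_PFOS, against 40.99, 36.6, 43.7 and 52.6 CPM in PFOS. Unexposed, Oasl2 stood at 56.7, 67.97, 135 and 51.2 CPM in Pectin and 57.3, 86.6 and 52.6 CPM in Inulin, against 48.97, 51.99, 42.9 and 41.02 CPM in Control. The lowest Pectin_PFOS and Inulin_PFOS libraries were above the highest PFOS library. Oasl2 had the smallest adjusted p of the module in Pectin_PFOS vs PFOS (2.17 ± 0.31, adjusted p = 0.000632), and it also rose in Inulin_PFOS vs PFOS (1.32 ± 0.32, adjusted p = 0.0294). Oas1a had 92.2, 59.9, 74.3 and 44.9 CPM in Pectin_PFOS and 41.3, 63.4 and 46.9 CPM in Inulin_PFOS, against 16.9, 21.01, 19.7 and 18.1 CPM in PFOS. Its values without PFOS were 39.6, 40.4, 78.2 and 39.4 CPM in Pectin and 31.7, 48.8 and 36.7 CPM in Inulin, against 26.8, 34.9, 37.8 and 17.4 CPM in Control. The Oas1a libraries of Pectin_PFOS and Inulin_PFOS all lay above those of PFOS. Oas1g stood at 50.7, 34.6, 45.1 and 28.6 CPM in Pectin_PFOS and 31.6, 45.00 and 29.7 CPM in Inulin_PFOS, against 18.2, 17.4, 14.8 and 11.7 CPM in PFOS. In the unexposed groups it was at 33.2, 27.4, 48.4 and 22.1 CPM in Pectin and 24.6, 45.7 and 32.3 CPM in Inulin, against 18.7, 29.95, 31.1 and 20.1 CPM in Control. Both Oas1 genes had their lowest group mean in PFOS, with no overlap with Pectin_PFOS or Inulin_PFOS. Oas1a rose with pectin (1.84 ± 0.27, adjusted p = 0.000835) and with inulin (1.42 ± 0.28, adjusted p = 0.0114), as did Oas1g (1.35 ± 0.26, adjusted p = 0.00349 and 1.19 ± 0.28, adjusted p = 0.0262). The Oasl1 level was 183, 163, 158 and 94.2 CPM in Pectin_PFOS and 112, 164 and 114 CPM in Inulin_PFOS, against 110.2, 162, 101 and 77.3 CPM in PFOS. Without PFOS Oasl1 had 62.1, 86.4, 221 and 26.5 CPM in Pectin and 92.4, 66.3 and 165 CPM in Inulin, against 81.4, 187, 78.4 and 64.3 CPM in Control. The Oasl1 groups overlapped throughout, and its difference in Pectin_PFOS vs PFOS was not called (0.41 ± 0.47, adjusted p = 0.571). Oas1a and Oas1g are near-identical neighbours 8.64 kb apart on chromosome 5 and had fractional counts, so their shares of common reads are uncertain. Oasl2 and Oasl1, another pair on that chromosome 11.01 kb apart, were called in 3 comparisons and in none by edgeR, in that order.

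All 4 IFIT genes, whose proteins bind foreign RNA ends and block its translation, rose in Pectin_PFOS vs PFOS. Ifit1 measured 103, 68.5, 69.9 and 42.2 CPM in Pectin_PFOS and 36.3, 56.7 and 31.8 CPM in Inulin_PFOS, against 11.2, 10.1, 17.6 and 20.6 CPM in PFOS. Unexposed, Ifit1 stood at 37.2, 36.2, 96.9 and 13.8 CPM in Pectin and 12.5, 13.5 and 19.01 CPM in Inulin, against 12.4, 20.4, 14.4 and 33.99 CPM in Control. No Pectin_PFOS library overlapped PFOS for Ifit1 (2.25 ± 0.45, adjusted p = 0.00458), and in Inulin_PFOS all 3 libraries were above PFOS without passing the test (1.48 ± 0.47, adjusted p = 0.0879). The log2 fold changes of Ifit2, Ifit3 and Ifit3b were 1.63 ± 0.42, 2.10 ± 0.48 and 1.45 ± 0.42 in Pectin_PFOS vs PFOS, and 1.63 ± 0.44, 1.38 ± 0.49 and 1.27 ± 0.44 in Inulin_PFOS vs PFOS. None of the 4 passed in the inulin comparison. The genes stand side by side on chromosome 19, with gaps of 7.11, 19.24 and 27.47 kb. Ifit1, Ifit3 and Ifit3b had fractional counts, so reads may be divided between copies, in Ifit3 and Ifit3b above all.

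The ISG15 pathway attaches the ubiquitin-like ISG15 to proteins (Herc6 encodes the main ligase in mice) and removes it (Usp18, which also dampens signalling at the interferon receptor). Isg15 had 64.6, 44.4, 77.9 and 32.6 CPM in Pectin_PFOS and 25.6, 46.05 and 37.2 CPM in Inulin_PFOS, against 7.02, 8.58, 10.8 and 21.3 CPM in PFOS. Its values without PFOS were 24.9, 40.4, 75.4 and 12.2 CPM in Pectin and 10.9, 19.4 and 16.2 CPM in Inulin, against 10.1, 17.9, 14.4 and 14.6 CPM in Control. Isg15 was higher in every Pectin_PFOS library than in every PFOS library (2.20 ± 0.45, adjusted p = 0.00465), and likewise in Inulin_PFOS, where it missed the threshold (1.61 ± 0.46, adjusted p = 0.0629). Usp18 stood at 22.8, 16.2, 27.4 and 15.9 CPM in Pectin_PFOS and 10.03, 16.3 and 8.07 CPM in Inulin_PFOS, against 1.38, 2.75, 2.42 and 5.99 CPM in PFOS. In the unexposed groups it was at 6.94, 11.8, 27.1 and 4.87 CPM in Pectin and 1.93, 3.62 and 4.18 CPM in Inulin, against 2.70, 3.13, 3.25 and 4.59 CPM in Control. Usp18 had the second largest fold change of the module in Pectin_PFOS vs PFOS (2.71 ± 0.48, adjusted p = 0.00205) and also rose in Inulin_PFOS vs PFOS (1.87 ± 0.49, adjusted p = 0.0461). The Herc6 level was 32.3, 38.4, 27.8 and 14.04 CPM in Pectin_PFOS and 29.6, 29.5 and 18.6 CPM in Inulin_PFOS, against 4.39, 3.37, 7.02 and 11.9 CPM in PFOS. Without PFOS Herc6 had 23.1, 27.2, 35.6 and 9.69 CPM in Pectin and 4.70, 6.79 and 10.6 CPM in Inulin, against 6.18, 5.36, 5.94 and 14.6 CPM in Control. Herc6 rose in Pectin_PFOS vs PFOS (2.08 ± 0.45, adjusted p = 0.00621) and in Inulin_PFOS vs PFOS (1.96 ± 0.47, adjusted p = 0.0294). Overlapping annotations, Gm44148 on the other strand for Usp18 and Gm45193 on the same strand for Herc6, leave part of their reads uncertain.

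**Figure D3:**
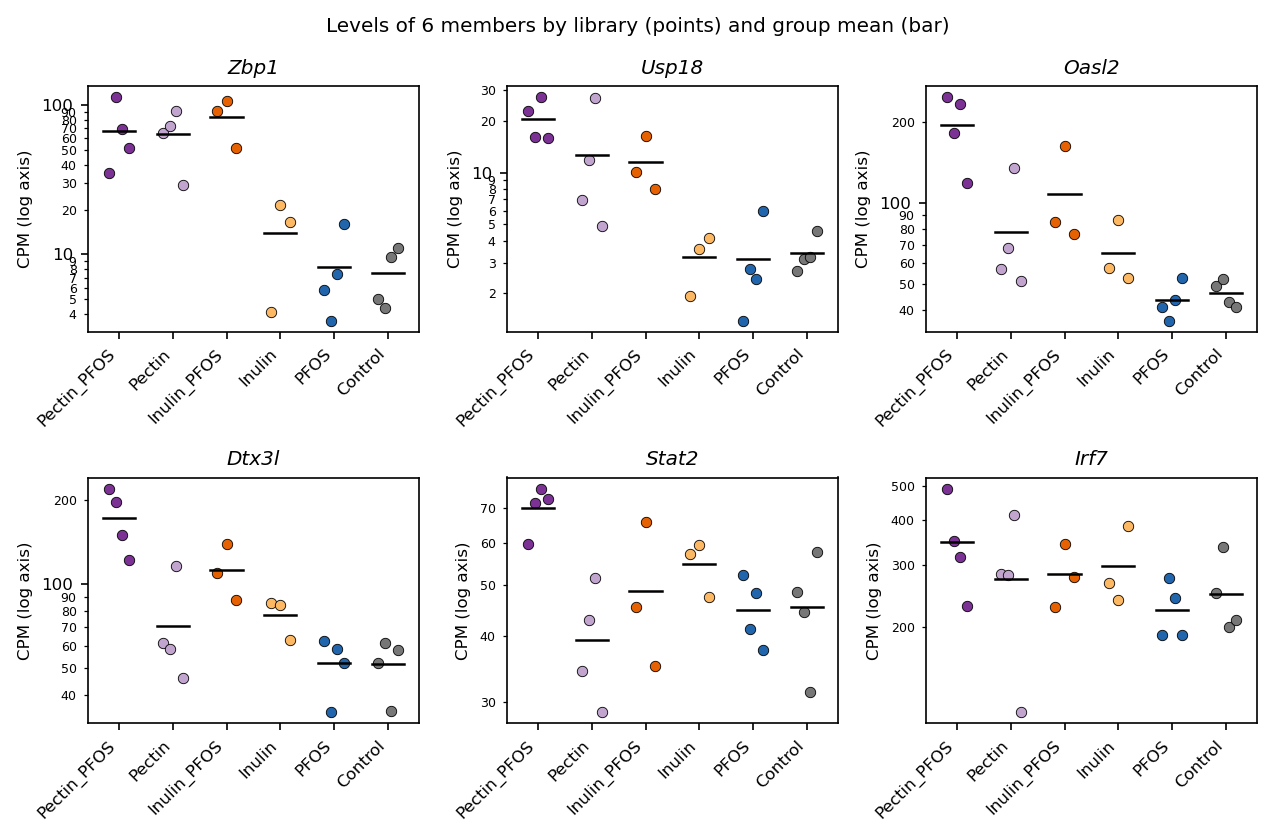
CPM (log axis) of 6 members by group, with a point per library and a bar at the group mean. Zbp1 and Usp18 are high in Pectin_PFOS, Pectin and Inulin_PFOS, Oasl2, Dtx3l and Stat2 are highest in Pectin_PFOS, and the Irf7 groups overlap.

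Parp9 and Dtx3l encode partners in an ADP-ribosylation and ubiquitin ligase complex, and both rose with either fibre under PFOS. Parp9 measured 213, 184, 174 and 127 CPM in Pectin_PFOS and 141, 150.1 and 141 CPM in Inulin_PFOS, against 92.7, 53.05, 73.3 and 86.5 CPM in PFOS. Unexposed, Parp9 stood at 121, 112, 146 and 70.6 CPM in Pectin and 102, 116 and 87.6 CPM in Inulin, against 74.8, 88.96, 77.7 and 75.8 CPM in Control. Parp9 did not overlap between the groups in Pectin_PFOS vs PFOS (1.19 ± 0.21, adjusted p = 0.00181) or in Inulin_PFOS vs PFOS (0.92 ± 0.22, adjusted p = 0.0289). Dtx3l had 219, 197, 149.6 and 121 CPM in Pectin_PFOS and 109.6, 138 and 87.2 CPM in Inulin_PFOS, against 62.5, 34.8, 58.7 and 52.1 CPM in PFOS. Its values without PFOS were 61.5, 58.4, 116 and 46.1 CPM in Pectin and 85.4, 84.1 and 63.1 CPM in Inulin, against 52.2, 61.3, 35.2 and 57.96 CPM in Control. Dtx3l, higher in every Pectin_PFOS library than in any library outside Pectin_PFOS and Inulin_PFOS, rose in both comparisons (1.72 ± 0.27, adjusted p = 0.0012 in Pectin_PFOS vs PFOS and 1.10 ± 0.29, adjusted p = 0.0429 in Inulin_PFOS vs PFOS). Parp14 stood at 163, 217, 249 and 227 CPM in Pectin_PFOS and 155, 192 and 107 CPM in Inulin_PFOS, against 93.2, 48.1, 80.2 and 81.9 CPM in PFOS. In the unexposed groups it was at 82.4, 82.1, 144 and 65.4 CPM in Pectin and 115, 144 and 81.2 CPM in Inulin, against 69.5, 76.7, 64.3 and 73.2 CPM in Control. Parp14, a mono-ADP-ribosyltransferase, rose in both comparisons (1.5 ± 0.25, adjusted p = 0.00162 and 1.00 ± 0.27, adjusted p = 0.0486). The Parp12 level was 414, 338, 255 and 189.9 CPM in Pectin_PFOS and 256, 326 and 327 CPM in Inulin_PFOS, against 214, 148, 179 and 148 CPM in PFOS. Without PFOS Parp12 had 204, 169.8, 347 and 85.2 CPM in Pectin and 258, 265 and 218 CPM in Inulin, against 152, 228, 208 and 152 CPM in Control. Parp12, the most abundant of this group (91.7 TPM), was called in neither (0.80 ± 0.30, adjusted p = 0.0752 and 0.81 ± 0.32, adjusted p = 0.157). Of the TRIM ubiquitin ligases, Trim30a rose in Pectin_PFOS vs PFOS (1.25 ± 0.41, adjusted p = 0.0423) and Trim25, which acts on RIG-I, did not pass (0.40 ± 0.29, adjusted p = 0.353). The Trim30a call was lost in 7 of 22 omissions (adjusted p up to 0.119), by library totals alone and with no low count filter. Dtx3l and Parp9 share 682 bases on opposite strands of chromosome 16, where Parp14 lies 54.97 kb away. The library kit keeps strand, but whether the counting used it is not stated.

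Of the 4 genes that act on viral nucleotides, entry and budding, Mx2 and Bst2 (tetherin) rose in Pectin_PFOS vs PFOS (1.59 ± 0.39, adjusted p = 0.0111 and 0.97 ± 0.29, adjusted p = 0.0289). Rsad2 (viperin), which makes a chain-terminating nucleotide, was above PFOS in every Pectin_PFOS library without passing (1.2 ± 0.46, adjusted p = 0.078). Cmpk2 measured 101, 48.3, 62.1 and 55.00 CPM in Pectin_PFOS and 36.1, 60.5 and 40.4 CPM in Inulin_PFOS, against 70.95, 53.6, 66.2 and 94.1 CPM in PFOS. Unexposed, Cmpk2 stood at 47.8, 50.9, 46.9 and 20.4 CPM in Pectin and 80.3, 53.3 and 61.8 CPM in Inulin, against 64.4, 62.8, 48.5 and 57.2 CPM in Control. Cmpk2, a mitochondrial nucleotide kinase 12.75 kb from Rsad2, was the 1 member with a negative value in Pectin_PFOS vs PFOS, and it was not called (−0.10 ± 0.27, adjusted p = 0.832). Adar had 78.2, 75.9, 82.3 and 84.1 CPM in Pectin_PFOS and 53.2, 61.5 and 46.5 CPM in Inulin_PFOS, against 63.1, 58.9, 51.3 and 44.9 CPM in PFOS. Its values without PFOS were 36.5, 45.7, 57.6 and 44.6 CPM in Pectin and 70.8, 66.7 and 57.5 CPM in Inulin, against 61.5, 53.2, 45.4 and 35.8 CPM in Control. Adar, the RNA-editing enzyme that marks self RNA, was higher in all 4 Pectin_PFOS libraries than in any other library. It rose in Pectin_PFOS vs PFOS (0.55 ± 0.17, adjusted p = 0.0302), a call lost in 7 of 22 omissions (adjusted p up to 0.0927) and when scaled by library totals alone (0.17, adjusted p = 0.557). Ifi35 stood at 163, 109, 177 and 123 CPM in Pectin_PFOS and 114, 123 and 118 CPM in Inulin_PFOS, against 89.97, 67.9, 92.1 and 157 CPM in PFOS. In the unexposed groups it was at 152, 151, 126 and 60.8 CPM in Pectin and 90.4, 115 and 103 CPM in Inulin, against 86.1, 102, 177 and 107 CPM in Control. The Ifi35 groups overlapped (0.49 ± 0.28, adjusted p = 0.235). The Xaf1 level was 20.1, 14.8, 20.7 and 10.96 CPM in Pectin_PFOS and 8.16, 15.96 and 11.4 CPM in Inulin_PFOS, against 5.68, 4.38, 5.84 and 8.24 CPM in PFOS. Without PFOS Xaf1 had 9.60, 12.6, 13.9 and 5.93 CPM in Pectin and 5.48, 8.57 and 6.41 CPM in Inulin, against 6.14, 5.47, 8.14 and 6.64 CPM in Control. Xaf1, a pro-apoptotic factor, rose in Pectin_PFOS vs PFOS (1.46 ± 0.28, adjusted p = 0.00346). Ifi44, Rtp4, Lgals3bp and Sp100 rose there as well, with log2 fold changes between 1.15 and 1.92. Sp100 and Trim30a had fractional counts, and Adar, Dhx58 and Irf7 overlap the neighbours Chrnb2, Dhx58os and Phrf1, so part of their reads is uncertain.

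Without PFOS, pectin in place of cellulose went with a rise in 2 members. In Pectin vs Control, Zbp1 (3.10 ± 0.54, adjusted p = 0.0128) and Usp18 (1.89 ± 0.47, adjusted p = 0.0456) rose and 0 fell, where 1.99% of all genes tested were called. The Pectin and Control libraries did not overlap for either gene. The share called higher was 1.03%. The member median was 0.42, and 13 members had an unadjusted p under 0.05, all with higher levels, against 8.12% of all genes. Ifi44 (1.91 ± 0.56, adjusted p = 0.0733), Herc6 (1.58 ± 0.44, adjusted p = 0.0653) and Isg15 (1.42 ± 0.44, adjusted p = 0.0878) came next in fold change without passing. The count was 5 without Control replicate 4, 4 without Pectin replicate 4 and 3 without PFOS replicate 4, and Usp18 lost its call in 11 of 22 omissions (adjusted p up to 0.148). Zbp1 passed in all 22 (adjusted p at most 0.0391).

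Set against inulin, pectin gave rises and 1 fall. In Pectin vs Inulin, Zbp1 (2.20 ± 0.58, adjusted p = 0.017), Usp18 (1.96 ± 0.52, adjusted p = 0.0174), Herc6 (1.69 ± 0.49, adjusted p = 0.025), Ifit1 (1.61 ± 0.49, adjusted p = 0.0317), Ifit3b (1.44 ± 0.47, adjusted p = 0.0418) and Ifi44 (1.83 ± 0.62, adjusted p = 0.0462) rose and Ddx58 fell (−0.61 ± 0.20, adjusted p = 0.043). That made 7 of 38 members, a share close to the 17.5% of all genes tested that were called (6.12% higher and 11.3% lower). The 6 members that rose were a larger share than over all genes, and the 1 that fell a smaller share. The member median was 0.19, against 0.04 over all genes. The Ddx58 call was lost in 8 of 22 omissions (adjusted p up to 0.207), and also by library totals alone, with no low count filter, with the compared groups only and with the replicate block (adjusted p up to 0.106). Zbp1 was not called without Inulin replicate 1 (adjusted p = 0.11). None of the 7 members kept its call in every omission. Ifi44 was called in 10 of the 22 omissions (adjusted p up to 0.187), Ifit3b in 16 (up to 0.135), Herc6 in 18, Ifit1 in 19 and Usp18 in 20. The count was 0 without Inulin replicate 1, 2 without Inulin replicate 2, 3 without Pectin replicate 2 and 4 without Pectin replicate 1. In the other direction it was 10 without Control replicate 4, where 21% of all genes were called. In Inulin vs Control, edgeR called 0 of 38 members and 0% of all genes, with 5 members higher at an unadjusted p under 0.05, against 8.09% of all genes. DESeq2 called 0 members there and 4.97% of all genes.

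The effect of PFOS was then read within each diet. On pectin, 13 members rose and 0 fell in Pectin_PFOS vs Pectin, where 11.4% of all genes tested were called higher and 20.8% in either direction. They were Ddx58, Dhx58, Eif2ak2, Oas3, Oasl2, Dtx3l, Parp14, Parp9, Stat2, Adar, Lgals3bp, Sp100 and Rsad2. The member median was 0.63, against −0.06 over all genes, and 36 of 38 were positive, against 46.4% of all genes. Every Pectin_PFOS library was above every Pectin library in 10 members, against 12% of all genes tested. By library totals alone the median of all genes was −0.27 and 9 members were called, where 18.8% of all genes were called in either direction. Ddx58 had the smallest adjusted p (1.05 ± 0.19, adjusted p = 0.0033), with all 4 Pectin_PFOS libraries above all 4 Pectin libraries. Oas3, with 34.9 to 61.2 CPM in Pectin_PFOS against 11.1 to 26.3 CPM in Pectin, had a large fold change (1.5 ± 0.34, adjusted p = 0.00754). Oasl2 (1.33 ± 0.30, adjusted p = 0.00743), Dtx3l (1.28 ± 0.27, adjusted p = 0.0058), Parp14 (1.19 ± 0.25, adjusted p = 0.0058), Stat2 (0.83 ± 0.21, adjusted p = 0.012) and Adar (0.80 ± 0.17, adjusted p = 0.00584) also rose. Lgals3bp stood at 191 to 372 CPM in Pectin_PFOS and 80.3 to 145 CPM in Pectin (1.26 ± 0.30, adjusted p = 0.00971).

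Zbp1 was not among them, and its mean differed by less than the spread between replicates (67.3 ± 33.5 CPM in Pectin_PFOS and 64.5 ± 25.95 CPM in Pectin, SD, n = 4 each), with a log2 fold change of 0.06 ± 0.50, adjusted p = 0.941. Neither did the IFIT genes or the ISG15 pathway pass in Pectin_PFOS vs Pectin, with medians of 0.61 over 4 genes and 0.52 over 3. Pectin replicate 3 was the highest Pectin library in 29 of 38 members, and replicate 4 the lowest in 30. Without Pectin replicate 3 the count was 22, without Pectin replicate 1, 2 or 4 it was 8, and without Pectin_PFOS replicate 1 or 3 it was 9. Without both Pectin_PFOS replicate 1 and Pectin replicate 4, a choice made after seeing the data, it was 7. Ddx58, Oas3, Oasl2, Dtx3l, Parp14, Stat2, Adar and Lgals3bp kept their calls in each single omission.

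On inulin and on cellulose, PFOS gave no called member. In Inulin_PFOS vs Inulin, edgeR called 0 of 38, where 0.159% of all genes tested were called. There, 13 members had an unadjusted p under 0.05, all higher, against 9.26% of all genes, and DESeq2 called 5 members and 3.21% of all genes. Every Inulin_PFOS library was above every Inulin library in 13 of 38 members, against 12.2% of all genes tested, among them all 4 IFIT genes, Isg15, Usp18, Herc6 and Zbp1. Zbp1 (2.57 ± 0.61, adjusted p = 0.0735) and Ifit2 (1.88 ± 0.49, adjusted p = 0.0964) came closest to the threshold. In PFOS vs Control, edgeR called 0 of 38 members and 0% of all genes. Only 2 members had an unadjusted p under 0.05, both lower (Oas1a and Oas1g, against 3.55% of all genes), and the member median was −0.14. DESeq2 called 0 members there and 0.00634% of all genes. Oas1a averaged 18.9 ± 1.79 CPM in PFOS and 29.2 ± 9.14 CPM in Control (SD, n = 4 each), a log2 fold change of −0.63 ± 0.26, adjusted p = 0.822.

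**Figure D4:**
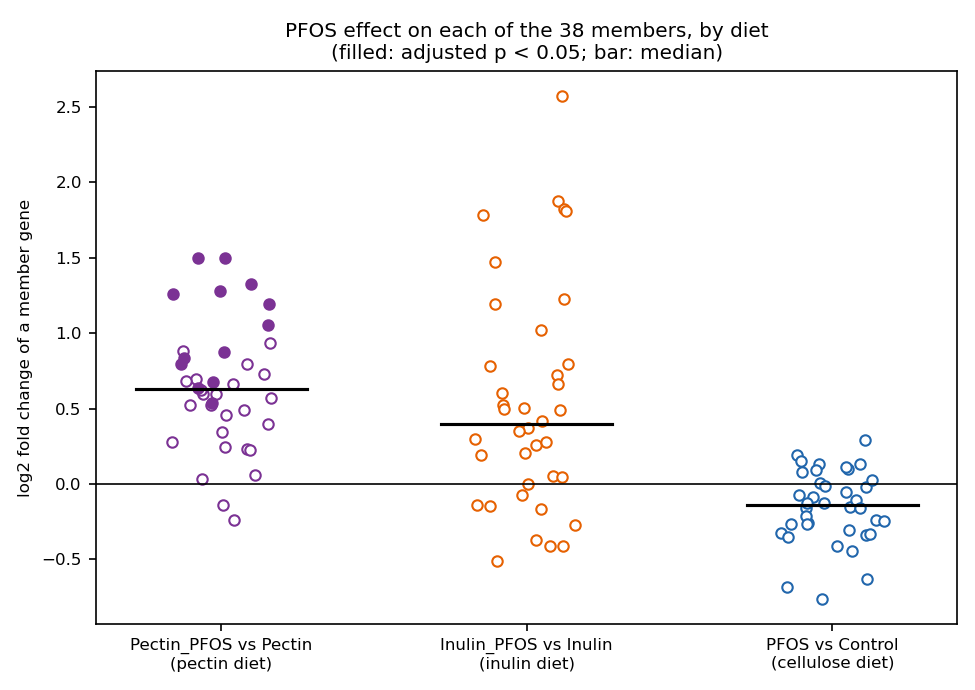
Log2 fold change with PFOS (vertical axis) of each of the 38 members on the pectin, inulin and cellulose diets; points are genes, filled at an adjusted p under 0.05, and bars are medians. The medians are 0.63 on pectin, 0.39 on inulin and −0.14 on cellulose, and the filled points are all on pectin.

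Whether PFOS acted differently on a fermentable fibre than on cellulose was tested as an interaction, the change with PFOS on that fibre less the change with PFOS on cellulose. For pectin, edgeR called 0 members and 0% of all genes, although 37 of 38 estimates were positive (median 0.81, against 50.8% positive over all genes) and 16 had an unadjusted p under 0.05, all positive, against 8.01% of all genes. The largest included Ifit3 (1.64 ± 0.65, adjusted p = 0.337), Lgals3bp (1.52 ± 0.42, adjusted p = 0.266) and Oasl2 (1.42 ± 0.42, adjusted p = 0.28), and Zbp1 was near 0 (−0.07 ± 0.72, adjusted p = 0.982). DESeq2 called 2 members and 0.755% of all genes. For inulin, edgeR called 0 members and 0% of all genes, with 11 members at an unadjusted p under 0.05, all positive, against 10.6% of all genes, and a median of 0.54. DESeq2 called 3 members and 4.18% of all genes for inulin. Averaged over the 3 diets, PFOS gave 0 calls among members and 0.159% over all genes, with 15 members higher at an unadjusted p under 0.05, against 6.16% of all genes, and DESeq2 called 4 members and 1.31% of all genes. By edgeR it gave 3 calls without Pectin replicate 3. The difference in the PFOS effect between diets was thus not called for any member by edgeR, which does not show that the effects are alike.

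Pectin and inulin under PFOS were also set against each other. In Pectin_PFOS vs Inulin_PFOS, edgeR called 0 of 38 members and 0% of all genes, with 8 members higher at an unadjusted p under 0.05, against 5.72% of all genes. DESeq2 called 1 member and 3.5% of all genes. The member median was 0.49 and 36 were positive, against 51.8% of all genes. Ddx58 came nearest, at 92.7, 57.1, 90.3 and 57.5 CPM in Pectin_PFOS against 35.9, 48.7 and 39.6 CPM in Inulin_PFOS (0.85 ± 0.21, adjusted p = 0.0731). Every Pectin_PFOS library was above every Inulin_PFOS library for Ddx58.

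Irf7, Ifih1, Oasl1, Parp12, Trim25, Cmpk2 and Ifi35 were called in none of the 12 comparisons by edgeR with all libraries and TMM scaling. Of these, Parp12 was called higher in Pectin_PFOS vs PFOS by DESeq2 (adjusted p = 0.048), with the compared groups only (0.0471) and with the replicate block (0.0474), and in Inulin_PFOS vs PFOS with the compared groups only (0.0271). Cmpk2 was called lower in Inulin_PFOS vs PFOS by library totals alone, as given above, and Oasl1, Parp12 and Trim25 were called in some omissions. The 7 include 4 of the 5 most abundant members by mean TPM (Irf7, Ifi35, Parp12 and Oasl1), the other being Lgals3bp. In Pectin_PFOS vs PFOS their log2 fold changes lay between −0.10 ± 0.27 for Cmpk2 and 0.80 ± 0.30 for Parp12.

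Upstream of the module, type I and type III interferon transcripts were at or near 0. Of 14 interferon genes looked up, 11 had 0 counts in all 22 libraries, among them Ifnb1, 7 Ifna genes, Ifnab, Ifnl2 and Ifnl3. A count of 0 allows a level of up to 0.133 to 0.198 CPM in a library (3 counts, counting error only), so lower levels were not detectable at this depth. Ifng had at most 7 counts in a library, Ifnk at most 2 and Ifne at most 1.

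The receptor genes Ifnar1, Ifnlr1 and Il10rb had their lowest group mean in Pectin. Ifnar1 averaged 50.4 ± 7.02 CPM in Pectin_PFOS and 26.9 ± 2.99 CPM in Pectin (SD, n = 4 each), and the libraries did not overlap (0.90 ± 0.14, adjusted p = 0.00216). Ifnlr1, the epithelial receptor chain for type III interferon, averaged 34.3 ± 5.11 CPM in Pectin_PFOS and 13.3 ± 1.47 CPM in Pectin (1.36 ± 0.23, adjusted p = 0.00232). It was lower in Pectin than in Control, where it averaged 24.95 ± 6.35 CPM (−0.90 ± 0.23, adjusted p = 0.0462). Of the 6 receptor genes, 3 rose in Pectin_PFOS vs Pectin, where 11.4% of all genes were called higher and 20.8% in either direction. The third was Il10rb (0.59 ± 0.20, adjusted p = 0.0434). The same 3 fell in Pectin vs Inulin, where 11.3% of all genes were called lower and the median of the 6 was −0.56. There Ifnar1 averaged 47.3 ± 4.38 CPM in Inulin (−0.81 ± 0.15, adjusted p = 0.00289) and Ifnlr1 averaged 39.7 ± 8.80 CPM in Inulin (SD, n = 3 each; −1.57 ± 0.24, adjusted p = 0.00124), and Il10rb fell too (−0.73 ± 0.22, adjusted p = 0.0276). In Pectin_PFOS vs PFOS 0 of 6 were called by edgeR. The comparisons that called receptors share the 4 Pectin libraries.

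In the list of 10 signalling and feedback genes, Irf1, a transcription factor, rose in Pectin_PFOS vs PFOS (1.21 ± 0.30, adjusted p = 0.0112) and in Inulin_PFOS vs PFOS (1.30 ± 0.31, adjusted p = 0.0294). Of all genes tested, 7.7% were called higher in the former comparison and 1.84% in the latter. Socs3, a feedback inhibitor of cytokine receptors, also rose in Pectin_PFOS vs PFOS (1.98 ± 0.46, adjusted p = 0.00891). In Pectin_PFOS vs Pectin the 1 gene of this list to rise was the receptor kinase Tyk2 (0.54 ± 0.15, adjusted p = 0.0197), which fell in Pectin vs Inulin (−0.62 ± 0.16, adjusted p = 0.0164). Over all genes, 11.4% were called higher in Pectin_PFOS vs Pectin and 11.3% lower in Pectin vs Inulin.

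Of 13 genes upstream of interferon that were tested, 5 rose in Pectin_PFOS vs Pectin and 1 fell, against 11.4% of all genes called higher and 20.8% in either direction. The adaptors Mavs (0.60 ± 0.18, adjusted p = 0.0236), Ticam1 (0.79 ± 0.19, adjusted p = 0.00988) and Myd88 (0.50 ± 0.16, adjusted p = 0.0342) and the kinases Tbk1 (0.65 ± 0.20, adjusted p = 0.0255) and Ikbke (0.93 ± 0.23, adjusted p = 0.011) rose, and the endosomal RNA receptor Tlr7 fell (−1.81 ± 0.62, adjusted p = 0.0439). In Pectin_PFOS vs PFOS, Myd88 (0.67 ± 0.16, adjusted p = 0.0107) and Tbk1 (0.61 ± 0.20, adjusted p = 0.0398) rose and 0 fell. That share of the 13 was near the share of all genes called there, 7.7% higher and 16% in either direction, and the list median was 0.24. In Inulin_PFOS vs PFOS 0 of the 13 were called by edgeR, against 2.64% of all genes. In Pectin vs Inulin, Ticam1 (−0.79 ± 0.20, adjusted p = 0.0138) and Ikbke (−0.71 ± 0.25, adjusted p = 0.0491) fell and Mb21d1, which encodes the DNA sensor cGAS, rose (1.66 ± 0.45, adjusted p = 0.0184), against 17.5% of all genes in either direction.

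Among 5 genes that act with ZBP1 in cell death, the kinase Ripk3 and the pore-forming Mlkl both rose in 3 comparisons in which Zbp1 rose. Ripk3 averaged 39.3 ± 3.77 CPM in Pectin_PFOS, 32.3 ± 4.24 CPM in Inulin_PFOS and 12.5 ± 3.51 CPM in PFOS, with 28.97 ± 3.80 CPM in Pectin, 27.3 ± 13.3 CPM in Inulin and 13.3 ± 1.76 CPM in Control. It rose in Pectin_PFOS vs PFOS (1.65 ± 0.23, adjusted p = 0.000631), Inulin_PFOS vs PFOS (1.37 ± 0.24, adjusted p = 0.00568) and Pectin vs Control (1.13 ± 0.23, adjusted p = 0.0218). Mlkl rose in the same comparisons (1.39 ± 0.26, adjusted p = 0.00255, 1.33 ± 0.27, adjusted p = 0.0133 and 1.26 ± 0.26, adjusted p = 0.0218, in that order). The shares of all genes called higher there were 7.7%, 1.84% and 1.03%. Neither Ripk3 nor Mlkl was called in Pectin_PFOS vs Pectin. In Pectin vs Inulin Mlkl rose (1.08 ± 0.28, adjusted p = 0.0152) and Ripk3 did not pass (0.08 ± 0.24, adjusted p = 0.828).

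A wider list of 39 other interferon stimulated genes gave 9 higher and 0 lower in Pectin_PFOS vs PFOS, against 7.7% of all genes called higher and 16% in either direction, with a median of 0.18. Those 9 were Rnf213 (1.80 ± 0.24, adjusted p = 0.000567), Epsti1 (1.18 ± 0.15, adjusted p = 0.000426), Lgals9 (1.36 ± 0.20, adjusted p = 0.000835), Tap1 (2.01 ± 0.35, adjusted p = 0.00202), Znfx1, Nmi, Samhd1, Ddx60 and Slfn2. In Pectin_PFOS vs Pectin 8 of the 39 rose and Ifi27l2a fell (−2.30 ± 0.55, adjusted p = 0.0102), against 11.4% of all genes called higher and 20.8% in either direction, and the median was 0.11. The 3 with the smallest adjusted p were Znfx1 (1.16 ± 0.19, adjusted p = 0.00224), Pml (1.2 ± 0.22, adjusted p = 0.00338) and Rnf213 (1.18 ± 0.24, adjusted p = 0.00454), and the others to rise were Helz2, Parp10, Lgals9, Tap1 and Samhd1. In Pectin vs Inulin, Helz2 (−1.18 ± 0.24, adjusted p = 0.0038) and Pml (−1.07 ± 0.23, adjusted p = 0.00583) fell and Ifitm2 (1.02 ± 0.29, adjusted p = 0.0227) and Phf11d (1.22 ± 0.37, adjusted p = 0.0308) rose, against 17.5% of all genes in either direction. In Inulin_PFOS vs PFOS 3 rose, Epsti1, Samhd1 and Tap1, and in Pectin vs Control only Epsti1 did (0.62 ± 0.15, adjusted p = 0.0423). The shares of all genes called higher were 1.84% and 1.03%, in that order.

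Of 15 GTPases best known as targets of interferon-gamma, Igtp (2.51 ± 0.64, adjusted p = 0.0141), Irgm1 (1.76 ± 0.42, adjusted p = 0.0103), Irgm2 (2.24 ± 0.46, adjusted p = 0.00496) and Ifi47 (1.66 ± 0.45, adjusted p = 0.0187) rose in Pectin_PFOS vs PFOS, where 7.7% of all genes were called higher and the median of the 15 was 1.03. In Inulin_PFOS vs PFOS, Irgm2 (2.06 ± 0.48, adjusted p = 0.0267) and Ifi47 (1.77 ± 0.47, adjusted p = 0.05) rose, with a median of 1.34, where 1.84% of all genes were called higher. In Pectin vs Inulin 8 of the 15 rose and 0 fell, where 6.12% of all genes were called higher, and the median was 1.53. They were Irgm2 (1.91 ± 0.51, adjusted p = 0.0177), Iigp1 (2.44 ± 0.77, adjusted p = 0.0356), Igtp, Gbp2, Gbp3, Gbp7, Ifi47 and Irgm1. In Pectin_PFOS vs Pectin edgeR called 0 of the 15, and their median was −0.10.

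Cell type markers also differed between these groups. In Pectin_PFOS vs PFOS, 7.7% of all genes tested were called higher and 16% in either direction. In Pectin_PFOS vs Pectin these shares were 11.4% and 20.8%. The summed TPM of 8 T cell markers was 208 to 383 in Pectin_PFOS and 246 to 394 in Inulin_PFOS, against 61.0 to 311 in PFOS, with all 8 positive and 1 called higher in Pectin_PFOS vs PFOS. The 6 plasma cell markers summed to 488 to 1908 TPM in Pectin_PFOS and 1394 to 2130 in Inulin_PFOS, against 650.0 to 876 in PFOS. All 6 were positive in Pectin_PFOS vs PFOS, with 2 called higher. In Inulin_PFOS vs PFOS all 6 were positive and 1 was called higher, where 1.84% of all genes were. The 9 myeloid markers summed to 52.0 to 248 TPM in Pectin_PFOS and 181 to 370.2 in Inulin_PFOS, against 139 to 220.4 in PFOS. The 5 fibroblast markers summed to 47.6 to 75.4 TPM in Pectin_PFOS, against 191 to 289 in PFOS and 146 to 216 in Pectin, and 3 of 5 fell in either comparison. The Paneth cell markers summed to 4595 to 15882 TPM in Pectin_PFOS and 15398 to 26800 in Pectin, with 5 of 6 lower. Plasma cell markers summed to 1831 to 4887 TPM in Pectin, above the Pectin_PFOS range but for an overlap at its top, and mitochondrial genes took 3.88% to 7.36% of counts there. The epithelial markers, with the library ranges given above, had medians of 0.56 in both Pectin_PFOS vs PFOS (5 of 5 positive) and Pectin_PFOS vs Pectin (4 of 5 positive), and Vil1 rose in both, at 4144 to 5626 CPM in Pectin_PFOS against 2210 to 2778 in PFOS and 1664 to 3605 in Pectin. The 6 smooth muscle markers summed to 369 to 1154 TPM in Pectin_PFOS, against 1240 to 2243 in PFOS and 858 to 2306 in Pectin, with 6 of 6 negative and 0 called by edgeR in either comparison (medians −0.79 and −0.99). The 7 B cell markers summed to 7.15 to 27.5 TPM in Pectin_PFOS, against 1.96 to 85.3 in PFOS and 16.3 to 87.9 in Pectin, with 7 of 7 negative and 0 called in either (medians −1.34 and −1.91). Of 7 enterocyte markers, 3 rose in Pectin_PFOS vs Pectin and 2 in Pectin_PFOS vs PFOS. Siglech, which defines plasmacytoid dendritic cells, the classical source of type I interferon, was at 0.132 to 0.395 CPM in Pectin_PFOS and 0.137 to 0.369 CPM in PFOS. These levels are near the 0.133 to 0.198 CPM that 3 counts make in a library. Cox6a2, another marker of these cells, had at most 5 counts and was not tested. The plasmacytoid dendritic cell list of 5 markers, Siglech included, summed to 98.6 to 155 TPM in Pectin_PFOS and 121 to 168 in Inulin_PFOS, against 30.5 to 95.5 in PFOS, without overlap. The sum was 114 to 142 TPM in Pectin, 52.7 to 131 in Inulin and 38.3 to 171 in Control, and the Control range spanned that of Pectin_PFOS. Of its 4 markers tested, 3 were positive in Pectin_PFOS vs PFOS (median 0.55, lowest −0.105) and 3 in Inulin_PFOS vs PFOS (median 0.66, lowest −0.106), with 0 called by edgeR. Klk1 averaged 50.3 ± 4.00 CPM in Pectin_PFOS and 26.98 ± 11.5 CPM in PFOS, and Ly6d 17.3 ± 10.1 CPM in Pectin_PFOS and 4.72 ± 4.76 CPM in PFOS (SD, n = 4 each). Neither was called by edgeR. Siglech averaged 0.311 ± 0.121 CPM in Pectin_PFOS and 0.271 ± 0.104 CPM in PFOS. The part of these marker, depth and scaling differences in the members' differences was not tested.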

How the data were processed

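RNA from intestinal tissue was sequenced from stranded libraries, 22 in all. Expected counts and TPM per gene are as the authors deposited them, and their submitters' processing notes name HISAT, Bowtie2 and GRCm39. Gene coordinates in the deposited table match GRCm38 annotation (46005 genes shared, 38860 with identical ends), so GRCm38 is the build printed. Neither the counting tool nor its strand setting is stated. Between 9.97% and 11.3% of nonzero expected counts were fractional, and counts were rounded to whole numbers.

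Genes passing edgeR's filterByExpr (15763) were fitted over all 22 libraries with 1 mean per group, TMM scaling and the robust quasi-likelihood test (edgeR 4.0.16, limma 3.58.1, R 4.3.3), with Benjamini-Hochberg adjustment and a threshold of 0.05. The biological coefficient of variation was 31.9%. There were 12 comparisons. Alternatives were RLE size factors, library totals alone, no low count filter, DESeq2 1.42.0, the compared groups only, the replicate number as a block, and omission of each library. The members, lists and tests were chosen with earlier results of these data known. Values in every library are given for the 16 members with the smallest adjusted p among those called, for Stat2, Irf9 and Irf7, and for the member with the highest mean TPM in each role. Of the pathway lists, Ifnar1, Ifnlr1, interferon genes at 0 and the genes called in a comparison with at least 3 called members are named, except 1 gene not reported here. Motif searches used RefSeq promoter windows.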

Additional observations from a re-analysis of the deposited data

Results flagged for a closer look

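In 5 of the 92 groups of 4 libraries examined, 1 library stood apart from the others of its group; chance flags about 1 in 20 groups. Irf9 was at 35.53 CPM in Control replicate 2, against 32.26 to 32.74 CPM in the other Control libraries. Oasl1 was at 187.3 CPM in the same library, against 64.28 to 81.38 CPM. Herc6 was at 14.56 CPM in Control replicate 4, against 5.364 to 6.185 CPM. Oas1a was at 78.17 CPM in Pectin replicate 3, against 39.38 to 40.37 CPM in the other Pectin libraries. Cmpk2 was lowest in Pectin replicate 4 at 20.35 CPM, against 46.95 to 50.94 CPM. None of the 5 lies in a PFOS-exposed group.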

How the results depend on the processing

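The 29 calls in Pectin_PFOS vs PFOS stayed between 20 and 32 under each alternative, 23 to 31 with 1 library left out. Across omissions the count ranged from 1 to 5 in Pectin vs Control, 0 to 10 in Pectin vs Inulin, 8 to 22 in Pectin_PFOS vs Pectin, 1 to 13 in Inulin_PFOS vs PFOS and 0 to 3 for PFOS averaged over 3 diets, and it was 0 in each omission in Inulin_PFOS vs Inulin. In Pectin vs Control it was 1 by library totals alone, 1 with no low count filter, 1 with the compared groups only and 6 by DESeq2. The shares of all genes called there were 0.799%, 0.656%, 0.298% and 5.43%, in that order. In Pectin vs Inulin it was 3 with no low count filter, 1 with the compared groups only and 11 by DESeq2. Of all genes, 7.7%, 7.3% and 22.8% were called under these settings, in that order, so the members' shares were near or below them. In Inulin_PFOS vs PFOS it was 18 with the compared groups only, where 10.1% of all genes were called. DESeq2 also called 5 in Inulin_PFOS vs Inulin, 1 in Pectin_PFOS vs Inulin_PFOS, 3 and 2 in the inulin and pectin interactions, and 4 for PFOS averaged. Without Pectin_PFOS replicate 1 and Pectin replicate 4, chosen after seeing the data, the count was 5 in Pectin vs Control, 1 in Inulin_PFOS vs Inulin and 7 in Pectin_PFOS vs Pectin. No result changed sign in a called value. The cause was not tested.

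Libraries with the same replicate number were compared across groups. Their correlations were −0.33 to 0.56 (median 0.063), against −0.53 to 0.53 (median −0.0325) for others. Of the 22 libraries, 6 correlated best with a library of their own number. The numbers in the sample titles differ from the replicate numbers for some libraries, and a pairing by title number was not tested. With the replicate block the count was 4 in Pectin vs Inulin, 5 in Inulin_PFOS vs PFOS and 1 in Pectin_PFOS vs Inulin_PFOS. The shares of all genes called with it were 14%, 2.17% and 4.11%, in that order.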
